A study of Mus musculus with 13 samples.

Results

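Cytochrome P450 enzymes (P450s) and glutathione transferases (GSTs) were followed in mouse lung RNA across lungs without bleomycin, lungs after bleomycin, and lungs after bleomycin in mice lacking cannabinoid receptor 1 (CB1R). The members were taken by symbol, as Cyp or Gst followed by the family pattern of digits and letters. Of 106 symbols that matched, 1 was set aside by the rule, and the remaining 105 genes (82 P450s and 23 GSTs) stood among 20270 genes in the tables.

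P450s are heme enzymes that insert 1 atom of oxygen into their substrates, using electrons that mostly come from P450 oxidoreductase. The numbered families divide the work: drugs, smoke constituents and other foreign compounds, fatty acids, sterols and bile acids, steroid hormones, vitamin D and retinoic acid. GSTs join glutathione to reactive products, including many that P450s make, and are grouped by a class letter such as alpha (a), mu (m), pi (p), theta (t) and omega (o). In the lung, much of this chemistry is known to sit in club cells, the secretory cells of the airways, with type II cells, endothelial cells and fibroblasts holding further members.

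There were 13 libraries: 4 Control (wild type, without bleomycin), 5 WT bleomycin (wild type) and 4 CB1R KO bleomycin. The study's methods give male C57BL/6J mice, 13 weeks old, and Cnr1-/- mice on the C57Bl/6J background whose age is not given. No Cre driver or tissue restriction is named for the deletion. Bleomycin, an antibiotic that injures the alveolar lining and leads to fibrosis, was given as a single oropharyngeal dose of 1 U per kg with the lung taken at day 14. Control mice were given sterile saline, and the RNA is from the lower right lobe. Genotype could be compared in bleomycin lungs alone, since no library of the CB1R KO without the drug was analysed here.

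Libraries are named by the numbers in their labels. WT bleomycin replicates 4 and 4-B2 share a number, and the labels do not say what B2 means or whether the mice differ. Wherever a value is given per library, the order is 3, 21, 24 and 26 for Control, 4, 2, 5, 4-B2 and 7 for WT bleomycin, and 8, 9, 10 and 11 for CB1R KO bleomycin. The depth was 14615904 to 16662580 estimated counts in 12 libraries and 53463884 in CB1R KO replicate 11. Cnr1, the gene of CB1R, had 0.403 to 1.05 TPM in Control, 0.848 to 1.85 TPM in WT bleomycin and 0.648 to 1.5 TPM in CB1R KO libraries. These tables do not say which part of the transcript was counted, so Cnr1 did not check the genotype, and all directions for CB1R KO rest on the labels. Lung epithelial markers were present throughout, with 20005 to 39148 TPM summed over 10 type II cell genes, whereas 10 hepatocyte genes summed to 5.56 to 12.1 TPM.

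Levels are given in TPM, the transcript share of the library, which is scaled for transcript length and can be compared between genes. Differences are log2 fold changes with their standard error (SE) from edgeR's quasi-likelihood test on the counts, with p-values adjusted over all 15315 genes tested. A gene was called at an adjusted p under 0.05. Within bulk tissue, fewer cells of a type and less RNA per cell cannot be told apart.

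Promoter sequences are shown for 5 members on which the results turn. They are the 250 bases before the start of transcription in RefSeq (build GRCm38.p6), 5′ to 3′ on the strand of the gene, in lower case. Capitals mark GCGTG, the core that the aryl hydrocarbon receptor binds, and TGACNNNGC, the antioxidant response element, each searched on both strands and not overlapping in these sequences. Cyp1a1 (chr9:57697363-57697612, + strand) had the steepest called fall with bleomycin and is the textbook target of the receptor. Gsta2 (chr9:78347146-78347395, - strand) had the same libraries high in CB1R KO as Cyp1a1. Gstm1 (chr3:108017974-108018223, - strand, the upstream of 2 promoters listed) was the sole member called between CB1R KO and WT bleomycin. Gsta3 (chr1:21240335-21240584, + strand) was the leading alpha class transferase, and Cyp4b1 (chr4:115647722-115647971, - strand) the leading P450 by level among the members.
Cyp1a1: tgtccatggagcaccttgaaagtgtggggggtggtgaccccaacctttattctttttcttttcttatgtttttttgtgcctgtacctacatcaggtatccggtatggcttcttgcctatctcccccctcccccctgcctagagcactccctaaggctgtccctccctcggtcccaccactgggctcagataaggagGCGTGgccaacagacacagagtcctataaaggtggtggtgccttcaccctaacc
Gsta2: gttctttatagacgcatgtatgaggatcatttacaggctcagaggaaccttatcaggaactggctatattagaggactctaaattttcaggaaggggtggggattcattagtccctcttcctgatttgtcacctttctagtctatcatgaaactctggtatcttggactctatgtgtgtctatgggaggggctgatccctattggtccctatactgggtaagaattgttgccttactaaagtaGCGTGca
Gstm1: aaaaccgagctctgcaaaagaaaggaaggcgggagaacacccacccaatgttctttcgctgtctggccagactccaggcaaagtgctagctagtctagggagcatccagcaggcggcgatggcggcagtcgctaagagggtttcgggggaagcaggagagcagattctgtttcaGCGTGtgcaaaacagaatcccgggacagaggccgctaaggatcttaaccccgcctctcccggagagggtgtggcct
Gsta3: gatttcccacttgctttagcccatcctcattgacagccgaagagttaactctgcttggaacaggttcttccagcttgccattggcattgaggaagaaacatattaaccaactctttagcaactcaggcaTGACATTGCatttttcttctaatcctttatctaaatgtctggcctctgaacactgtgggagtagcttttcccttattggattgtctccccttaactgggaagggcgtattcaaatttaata
Cyp4b1: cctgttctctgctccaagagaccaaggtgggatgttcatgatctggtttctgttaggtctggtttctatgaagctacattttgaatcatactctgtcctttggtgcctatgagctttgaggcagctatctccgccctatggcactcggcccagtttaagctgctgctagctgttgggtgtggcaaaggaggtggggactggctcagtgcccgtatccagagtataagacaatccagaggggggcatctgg

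Cyp1a1, Gsta2 and Gstm1 each held 1 GCGTG core in this window, Gsta3 held 1 TGACNNNGC match, and Cyp4b1 held neither. The core was not common among the members: 19 of 100 promoters listed for 83 members held it, beside 28.3% of 32536 promoters of all genes. TGACNNNGC was in 6 of 100 member promoters (6.0%), beside 10.2% of all promoters. A match is a description of these letters, not of binding.

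Most of the families' RNA in the lung came from few genes. By median TPM over the 13 libraries, 8 members were at 100 TPM or more, 21 were between 10 and 100, 15 between 1 and 10, and 61 under 1. The 10 leading members were Gstm1 at 266.8 TPM, Gstp1 at 228.0, Cyp4b1 at 189.0, Gsto1 at 161.7, Gstm2 at 160.2, Gsta3 at 142.9, Cyp2b10 at 120.2, Gstt1 at 111.5, Gsta4 at 94.4 and Cyp2s1 at 71.3. P450s made up 3 of these 10 and GSTs 7. The order differed between groups. By mean TPM, Control was led by Cyp4b1 (568.4), Gstm1 (515.2) and Gsta3 (361.3), WT bleomycin by Gstp1 (214.9), Gsto1 (203.8) and Gstm1 (181.9), and CB1R KO bleomycin by Gstm1 (267.6), Gstp1 (245.9) and Cyp4b1 (203.6). Neighbours in these orders overlapped in their ranges over libraries, except Gstm1 and Gsta3 in Control, and the orders were not tested.

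Of the 105 members, 52 passed the filter on low counts and were tested, 32 P450s and 20 GSTs. None of the other 53 exceeded 1.2 TPM in any library, and 2 of them, Cyp2c38 and Cyp2c54, had 0 counts throughout. The untested genes included 30 of 40 members of family 2 (Cyp2r1 counted with vitamin D), among them all Cyp2c genes, which are known mainly from liver. Cyp1a2, a liver enzyme, totalled 10.0 estimated counts over the 13 libraries. The steroid hormone genes Cyp17a1 and Cyp19a1 (aromatase) totalled 20.0 and 25.8, the vitamin D genes Cyp24a1 and Cyp27b1 totalled 5.0 and 27, and the retinoic acid hydroxylase Cyp26a1 totalled 30.9.

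Summed over members, P450 RNA was at 1091.5, 1122.1, 1251.1 and 1453.8 TPM in Control, at 566.9, 522.6, 503.6, 564.9 and 595.0 TPM in WT bleomycin, and at 731.8, 746.4, 578.7 and 630.2 TPM in CB1R KO bleomycin libraries. The Control libraries lay above every bleomycin library, and CB1R KO replicate 10 fell within the WT bleomycin range. GST RNA summed to 1860.4, 2013.0, 1996.2 and 2154.2 TPM in Control, to 1174.3, 1200.3, 1201.5, 1420.0 and 1333.5 TPM in WT bleomycin, and to 1354.9, 1390.3, 1401.7 and 1622.1 TPM in CB1R KO libraries. Here too Control stood apart from both bleomycin groups, which overlapped each other. These sums were not tested.

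**Figure D1:**
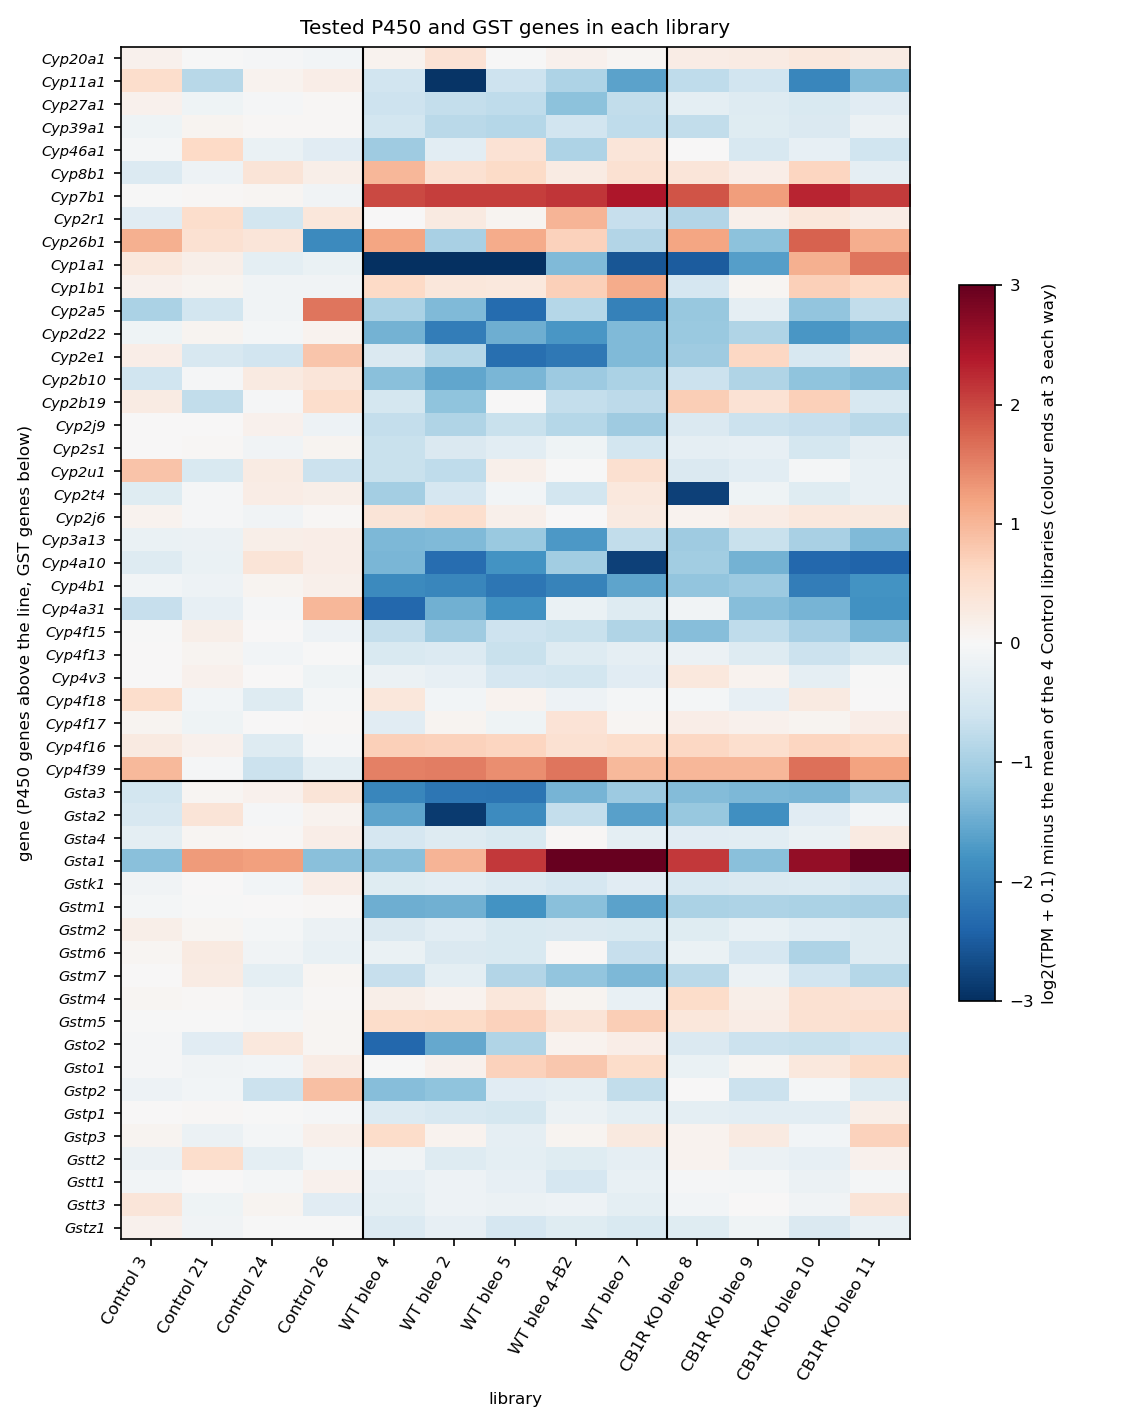
Heat map of the 52 tested members (rows) in the 13 libraries (columns), as log2(TPM + 0.1) minus the mean of the 4 Control libraries, with red for higher and blue for lower and the colours ending at 3 on each side. Most rows are blue in both bleomycin groups, Cyp7b1 and Cyp4f39 are red in all 9 bleomycin libraries, and among bleomycin libraries Cyp1a1 is red in CB1R KO replicates 10 and 11 and blue in the other 7.

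WT bleomycin lungs were first compared with Control. Of the 52 members tested, 25 were lower and 6 higher in WT bleomycin, while 21 were not called. The background was high in this comparison, with 48.9% of all genes tested called in either direction, 23.9% called lower and 25.0% called higher, beside 48.1% and 11.5% of the members. The median log2 fold change was -0.42 over the members and -0.01 over all genes tested. The fall was found in both families: 16 of 32 P450s and 9 of 20 GSTs were lower, and 5 P450s and 1 GST were higher. On the log2 CPM scale (counts scaled to library size), every WT bleomycin library lay below every Control library for 22 members and above for 5, beside 18.8% and 21.5% of all genes tested.

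Among the enzymes of foreign compounds, family 2 had 6 of its 10 tested members lower and 1 higher, beside 23.9% and 25.0% of all genes. Cyp2b10, an inducible drug-metabolizing enzyme, was at 154.5, 226.9, 279.8 and 299.7 TPM in Control and at 97.1, 79.0, 90.3, 108.7 and 120.2 TPM in WT bleomycin lungs. No WT bleomycin library reached the Control range, and the log2 fold change was -1.31 ± 0.19 (SE; edgeR adjusted p = 5.77e-05). Cyp2d22, of the subfamily whose human member clears many basic drugs, fell from 24.3, 28.2, 25.7 and 28.7 TPM to 9.91, 6.21, 9.6, 7.9 and 10.6 TPM. That was a 3.25-fold fall with a narrow spread in both groups (log2 fold change -1.70 ± 0.15, adjusted p = 9.22e-07). Cyp2s1, an extrahepatic epithelial P450, fell less, from 85.4 ± 4.37 to 64.4 ± 9.63 TPM (mean ± SD, n = 4 and 5, edgeR adjusted p = 0.00101).

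Cyp2a5, the coumarin and nicotine hydroxylase, was at 29.3, 38.5, 52.9 and 172.2 TPM in Control and at 29.2, 22.4, 11.4, 31.1 and 13.9 TPM in WT bleomycin libraries. Control replicate 26 stood far above the other 3 Controls, and the lowest Control overlapped the WT bleomycin range. The log2 fold change was -1.81 ± 0.46 (edgeR adjusted p = 0.00494) with that library and -0.92 (adjusted p = 0.0274) without it. Cyp2a5 shares 46.4% of its 31-base words with other genes, almost all with Cyp2a4, so reads of the pair may have been split between them. The tested Cyp2j genes went apart: Cyp2j9 was lower (log2 fold change -0.89 ± 0.13, edgeR adjusted p = 8.34e-05) and Cyp2j6 marginally higher (0.24 ± 0.09, adjusted p = 0.0416). The Cyp2j6 call was lost in 12 of 25 alternative settings.

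Cyp2e1, which oxidizes ethanol and small solvents, was at 21.1, 13, 12.3 and 32.6 TPM in Control and at 13.5, 9.95, 3.7, 4.07 and 7.21 TPM in WT bleomycin lungs. WT replicate 4 lay within the Control range, and the log2 fold change was -1.40 ± 0.42 (edgeR adjusted p = 0.0119). Without Control replicate 26 it was -1.04 (adjusted p = 0.0553). Adipocyte markers moved with this gene. Over 10 adipocyte genes the summed level was 274.7, 91.4, 74.1 and 261.0 TPM in Control and 154.8, 85.4, 54.0, 27.1 and 51.3 TPM in WT bleomycin, with Control replicates 3 and 26 high in both sums and WT replicate 4 the highest of its group. None of the 10 adipocyte genes was at 0 throughout, 5 of the 8 tested were lower in WT bleomycin, and the part of these markers in the Cyp2e1 values was not tested.

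**Figure D2:**
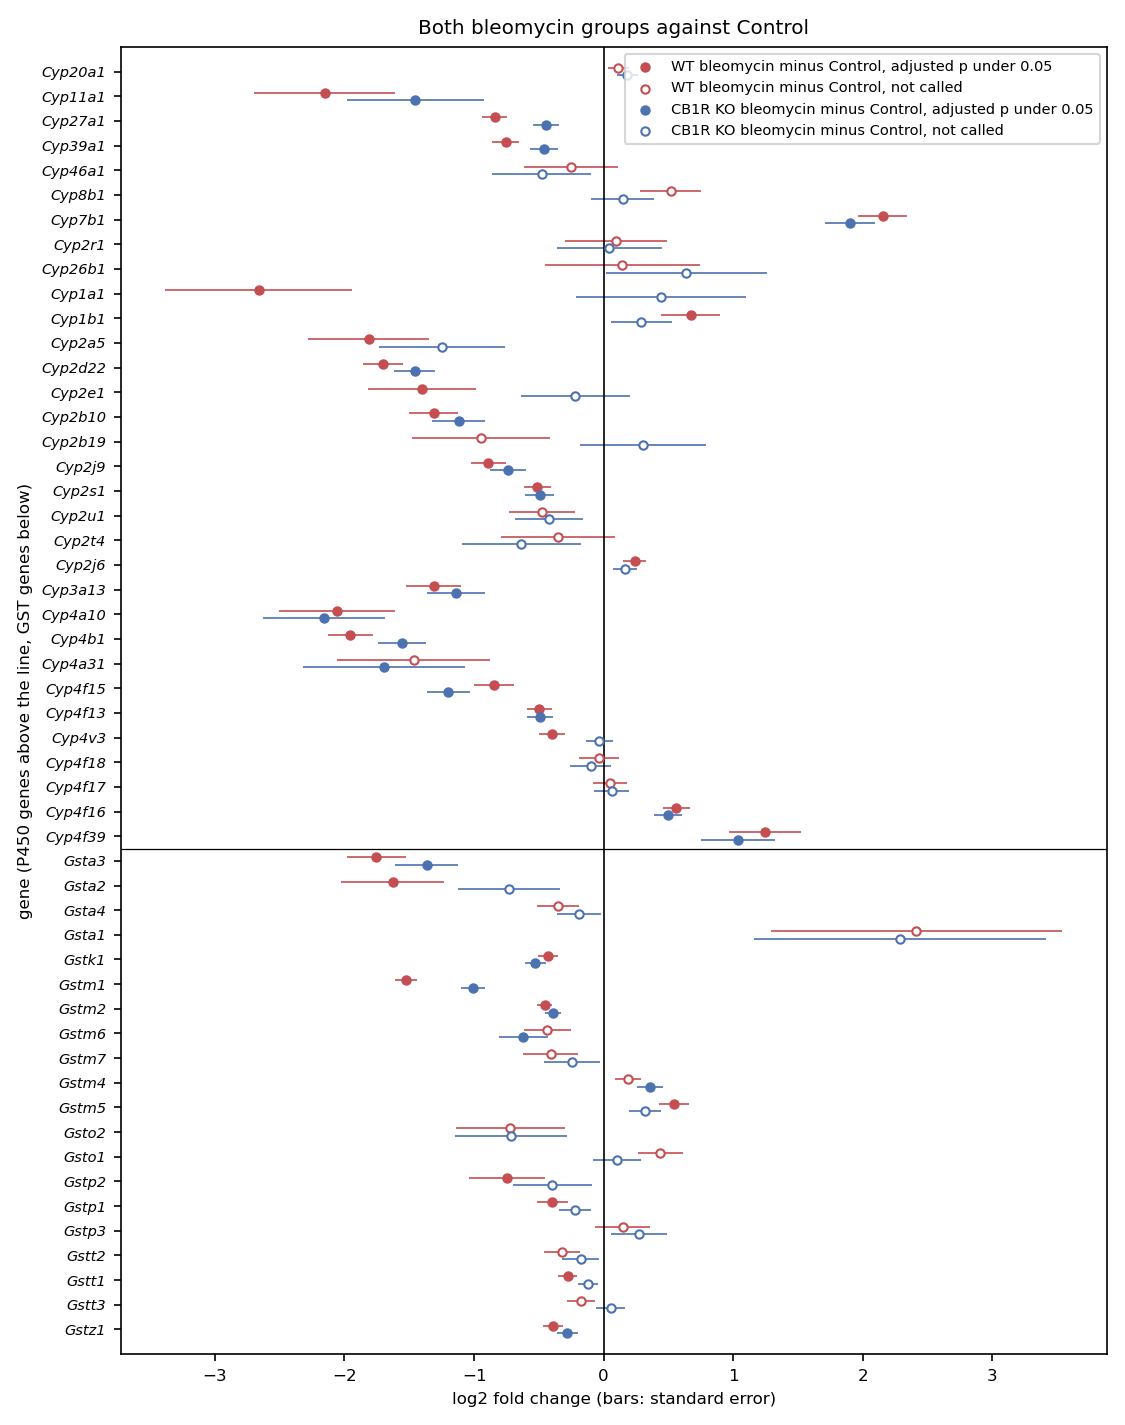
Log2 fold change against Control (x axis) of the 52 tested members (y axis), in red for WT bleomycin and in blue for CB1R KO bleomycin, with bars for the standard error and filled points for an adjusted p under 0.05. Most points lie left of 0, the blue point of Cyp1a1 lies at 0.45 with the red one at -2.66, and Cyp7b1 is the called member farthest to the right in both colours.

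Family 1, whose genes answer to the aryl hydrocarbon receptor, divided. Cyp1a1, the oxidizer of polycyclic aromatic hydrocarbons, was at 9.32, 8.47, 6.13 and 6.45 TPM in Control and at 0.854, 0.487, 0.694, 2.91 and 1.18 TPM in WT bleomycin libraries. The groups did not overlap, and the fall was 6.32-fold (log2 fold change -2.66 ± 0.72, edgeR adjusted p = 0.00709). Without WT bleomycin replicate 4-B2 it was -3.27 (edgeR adjusted p = 0.004). Cyp1b1, its mesenchymal relative, was at 4.4, 4.28, 3.75 and 3.78 TPM in Control and rose to 6.2, 5.13, 5.03, 6.75 and 8.93 TPM in WT bleomycin (log2 fold change 0.67 ± 0.23, adjusted p = 0.0235). This rise was no longer called without Control replicate 24 (edgeR adjusted p = 0.0563), without Control replicate 26 (0.0512) or without WT replicate 7 (0.062). In family 3, the only tested member, Cyp3a13, fell by 1.31 ± 0.21 on the log2 scale (adjusted p = 0.000158).

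Of the fatty acid hydroxylases of family 4, 5 of 10 tested members were lower and 2 higher, beside 23.9% and 25.0% of all genes. Cyp4b1, known for fatty acid hydroxylation and for activating protoxins in the lung, had the most RNA of the member P450s. It fell from 536.7, 512.0, 598.8 and 626.1 TPM to 151.3, 145.0, 125.6, 141.3 and 189.0 TPM. The lowest Control library stood well above the highest WT bleomycin library, and the log2 fold change was -1.96 ± 0.17 (edgeR adjusted p = 8.82e-07). Cyp4a10, which hydroxylates the end of fatty acid chains, was low, under 2 TPM in every library, and fell by 2.06 ± 0.45 on the log2 scale (adjusted p = 0.00158), with 44.9% of its words shared with relatives. Cyp4f13, Cyp4f15 and Cyp4v3 made up the rest of the lower group, with log2 fold changes of -0.49, -0.84 and -0.40.

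Cyp4f39, which hydroxylates very long fatty acids and whose human counterpart serves the skin barrier, went the other way. Its TPM was 5.53, 2.67, 1.73 and 2.21 in Control and 8.07, 8.17, 7.39, 8.61 and 5.46 in WT bleomycin. The lowest WT bleomycin library lay just under the highest Control, replicate 3, in TPM, though not in CPM, and the log2 fold change was 1.25 ± 0.28 (edgeR adjusted p = 0.00188). Cyp4f16 was higher by 0.56 ± 0.10 (adjusted p = 0.000472), and 38.4% of its words are shared, mostly with Cyp4f37. Cyp4f17 and Cyp4f18, the leukotriene B4 hydroxylase of neutrophils, were not called, at log2 fold changes of 0.05 ± 0.13 and -0.03 ± 0.15.

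The sterol group held the steepest rise among called members. Cyp7b1, which hydroxylates 25- and 27-hydroxycholesterol, was at 2.77, 2.85, 2.91 and 2.58 TPM in Control and at 11.3, 12.1, 12.0, 12.6 and 15.3 TPM in WT bleomycin lungs. All WT bleomycin libraries lay above all Controls by a wide gap, a 4.45-fold rise (log2 fold change 2.15 ± 0.19, edgeR adjusted p = 7.56e-07). Cyp27a1, the mitochondrial enzyme that makes 27-hydroxycholesterol, moved the other way, from 28.5, 23.7, 25.2 and 26.8 TPM to 16.8, 15.8, 15.4, 11.0 and 15.6 TPM (log2 fold change -0.84 ± 0.10, adjusted p = 8.57e-06). Cyp39a1, a hydroxylase of 24-hydroxycholesterol, was lower as well (-0.76 ± 0.10, adjusted p = 3.75e-05). Cyp46a1 and Cyp8b1 were not called.

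Macrophage markers rose in the same libraries. All 10 genes of the list for monocyte-derived and interstitial macrophages were higher in WT bleomycin, none was at 0 throughout, and the summed level went from 1024 to 1196 TPM in Control to 5325 to 5776 TPM in WT bleomycin and 3744 to 5864 TPM in CB1R KO lungs. CB1R KO replicate 9, the lowest bleomycin library in this sum, was also the lowest in Cyp7b1. The part of these cells in the Cyp7b1 values was not tested.

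Of the steroid hormone and the vitamin D and retinoic acid genes, 3 of 12 were tested. Cyp11a1, which cleaves the cholesterol side chain, was called lower (log2 fold change -2.15 ± 0.54, edgeR adjusted p = 0.00459) on few reads, 9 to 32 estimated counts in Control and 1 to 9 in WT bleomycin libraries. Cyp26b1, which clears retinoic acid, ranged from 1.29 to 10.8 TPM in Control and from 2.55 to 11.7 TPM in WT bleomycin libraries. Its wide spread left the interval of the log2 fold change between -1.03 and 1.32 (95%), so neither direction was resolved. Cyp2r1, a vitamin D 25-hydroxylase, had a log2 fold change of 0.09 ± 0.39.

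**Figure D3:**
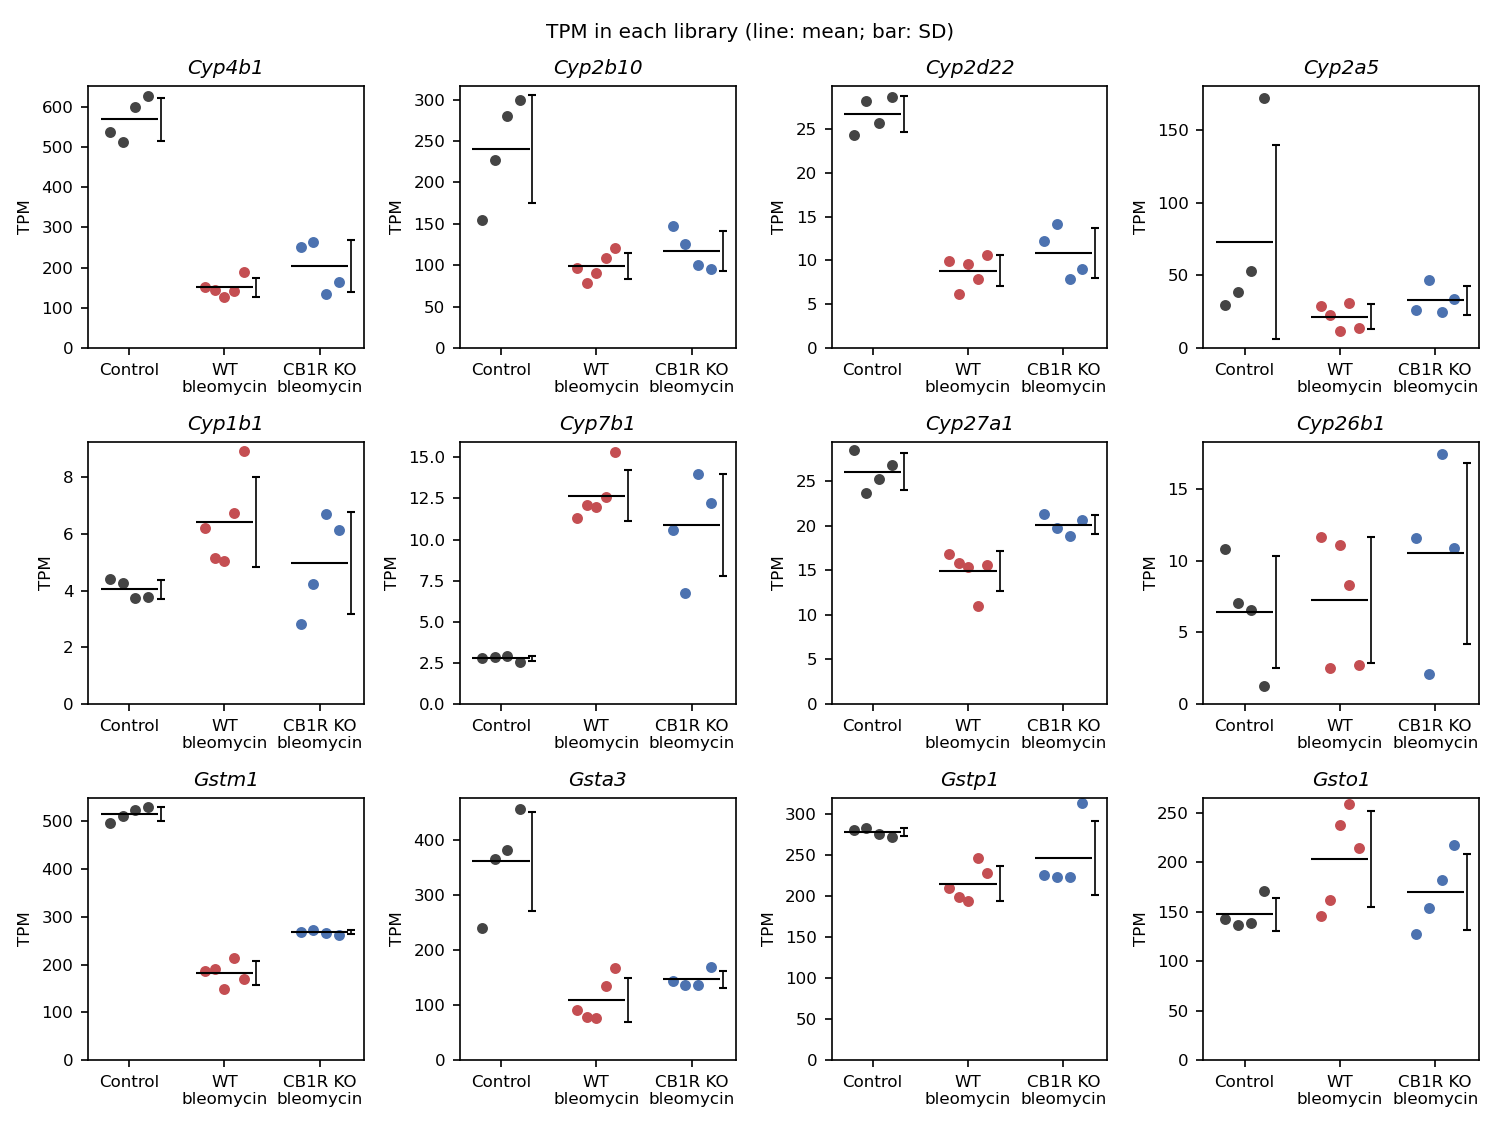
TPM (y axes, each from 0) of 12 members in every library, by group (x axis), with a line for the mean and a bar for the SD. Cyp4b1, Cyp2d22, Gstm1 and Gsta3 show Control libraries above all bleomycin libraries, Cyp7b1 the reverse, and Gstm1 and Cyp27a1 separate all 3 groups.

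Mu class transferases, broad conjugators of electrophiles, had 2 of 6 tested members lower, 1 higher and 3 not called. Over all genes tested, 23.9% were lower and 25.0% higher. Gstm1, the member with the highest median over all libraries, was at 496.6, 511.3, 523.4 and 529.7 TPM in Control and at 185.6, 190.9, 148.2, 214.6 and 170.2 TPM in WT bleomycin libraries. The fall was 2.88-fold with a small spread in Control (log2 fold change -1.53 ± 0.09, edgeR adjusted p = 3.22e-08). Gstm2 fell by 0.46 ± 0.06 on the log2 scale (adjusted p = 2.66e-05), whereas Gstm5 rose from 13.9 ± 0.498 to 21.0 ± 2.04 TPM (mean ± SD, n = 4 and 5, edgeR adjusted p = 0.00125). All genes of this class lie on chromosome 3 in RefSeq, and 16.9% of the words of Gstm1 are shared, mostly with Gstm3.

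In the alpha class, known for conjugating products of lipid peroxidation, 2 of 4 tested members were lower, beside 23.9% of all genes. Gsta3 was at 239.3, 366.1, 382.6 and 457.2 TPM in Control and at 91.0, 77.6, 77.2, 134.0 and 166.5 TPM in WT bleomycin lungs (log2 fold change -1.76 ± 0.23, edgeR adjusted p = 2.29e-05). Gsta2 fell from 8.17, 14.9, 11.1 and 12.3 TPM to 3.73, 1.46, 3.0, 6.93 and 3.58 TPM (-1.63 ± 0.40, adjusted p = 0.00358). Neither Gsta3 nor Gsta2 overlapped between the groups. Gsta2 shares 56.7% of its words with other genes, most with Gm10639, so its reads may have been split between genes. Gsta4, the transferase of 4-hydroxynonenal, missed the threshold at -0.35 ± 0.16 (adjusted p = 0.0852). Gsta1 was at 0 to 0.476 TPM in Control and 0 to 3.19 TPM in WT bleomycin, was not called (adjusted p = 0.0896), and shares 92.2% of its words with other genes, so its values are uncertain.

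Falls were also found in the pi, kappa (k), zeta (z) and theta classes, whereas no omega class member was called. Gstp1, the pi class enzyme of epithelia, went from 280.7, 282.3, 275.5 and 272.0 TPM to 209.3, 198.0, 193.7, 245.6 and 228.0 TPM (log2 fold change -0.40 ± 0.12, edgeR adjusted p = 0.0128), and shares 57.8% of its words with Gstp2. Gstp2 was itself called lower (-0.74 ± 0.30, edgeR adjusted p = 0.0494), with groups that overlapped. Gstk1 of mitochondria and peroxisomes (-0.43 ± 0.08), Gstz1 of tyrosine breakdown (-0.39 ± 0.08) and Gstt1 of the theta class (-0.28 ± 0.07) were lower too, with edgeR adjusted p between 0.00029 and 0.00642. Gsto1, the omega class enzyme that reduces dehydroascorbate, lay at 143.2, 136.5, 138.3 and 171.3 TPM in Control and at 145.3, 161.7, 238.4, 258.7 and 214.7 TPM in WT bleomycin. WT replicates 4 and 2 were within the Control range, and the edgeR adjusted p of 0.0503 missed the threshold (log2 fold change 0.44 ± 0.17), while DESeq2 on all libraries called it higher (adjusted p = 0.0329).

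Genes that work with these enzymes were taken from 6 lists. P450 oxidoreductase (Por), the electron donor, fell from 226.5 to 317.9 TPM in Control to 141.3 to 171.3 TPM in WT bleomycin (log2 fold change -0.85 ± 0.11, edgeR adjusted p = 1.78e-05). Its list of electron donors and heme supply had 3 of 10 lower and 1, heme oxygenase Hmox1, higher, beside 23.9% and 25.0% of all genes tested. Among other microsomal oxidases and hydrolases, 8 of 10 were lower and none higher, with a median log2 fold change of -1.22. These included Fmo2, the main flavin monooxygenase of the lung, from 391.1 to 913.8 TPM in Control to 143.1 to 361.7 TPM in WT bleomycin (-1.78 ± 0.33, adjusted p = 0.000438).

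The glutathione supply had 3 of 10 higher and 1 lower, beside the 25.0% and 23.9% of all genes given above. The median log2 fold change of this list was only 0.14. Slc7a11, the cystine importer, rose by 2.08 ± 0.25 on the log2 scale (edgeR adjusted p = 1.07e-05), and Gclc, the catalytic subunit that makes the glutathione precursor, rose by 0.71 ± 0.14 (adjusted p = 0.00059). Of 9 tested genes for the xenobiotic receptors and their partners 3 were lower, including Ahr, the aryl hydrocarbon receptor (-0.41 ± 0.14, adjusted p = 0.0204). Other conjugating enzymes had 4 of 10 lower and 3 higher, and retinoic acid handling had 3 of 9 lower and 2 higher, beside the same shares.

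Markers of cells that hold these enzymes were read in the same comparison. Over 12 club cell genes, none at 0 throughout, the summed level was 82545 to 92562 TPM in Control, 40285 to 60517 TPM in WT bleomycin and 36750 to 47250 TPM in CB1R KO lungs, a sum led by Scgb1a1, and 5 of the 12 were lower and 2 higher in WT bleomycin. Type II cell genes had 7 of 10 lower and endothelial genes 9 of 10 lower, with medians of -0.59 and -0.56. The summed type II level was 33183 to 38428 TPM in Control and 20005 to 24007 TPM in WT bleomycin libraries. Of other lists, neutrophil (5 of 7), T and NK cell (4 of 7), red blood cell (5 of 7) and muscle genes (9 of 9) were lower. B and plasma cell genes were lower in 6 of 8 and higher in 1, and ciliated cell genes lower in 2 of 10. Fibroblast (4 higher and 4 lower of 10), type I (2 and 3 of 10) and alveolar macrophage genes (2 and 2 of 10) went both ways. Over all genes tested, 23.9% were called lower and 25.0% higher. The part of these cells in the fall of the P450s and GSTs was not tested.

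CB1R KO bleomycin lungs were next compared with WT bleomycin lungs, which addresses whether loss of CB1R alters the enzymes in injured lung. Of the 52 members tested, 1 was higher, Gstm1, and none was lower in edgeR's test, where 11 of 52 members had an unadjusted p under 0.05, beside 2608 of 15315 over all genes. DESeq2 on all libraries called 4 of 55 members higher and none lower, beside 1.73% and 2.37% of all genes with an adjusted p there. The edgeR background was low, at 0.979% of all genes called in either direction, 0.359% called higher and 0.620% called lower, beside 1.92% and 0% of the members. The median log2 fold change was 0.12 over the members and 0.00 over all genes tested, with 34 members above 0 and 18 below.

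Gstm1 was at 267.9, 272.6, 266.8 and 262.9 TPM in CB1R KO and at 185.6, 190.9, 148.2, 214.6 and 170.2 TPM in WT bleomycin libraries. The 4 CB1R KO values lay close together, above every WT bleomycin library and below every Control library. The difference was 1.43-fold (log2 fold change 0.52 ± 0.08, edgeR adjusted p = 0.0186). The size stayed between 0.46 and 0.60 over the 25 alternatives, while the adjusted p rose to 0.0679, 0.0712 and 0.0521 without CB1R KO replicate 8, 9 or 11.

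Cyp1a1 showed the largest difference and did not pass the test. Its level in CB1R KO libraries was 1.25, 2.3, 15.7 and 23.0 TPM. Replicates 8 and 9 overlapped the WT bleomycin range of 0.487 to 2.91 TPM, whereas replicates 10 and 11 were above all Controls. The log2 fold change was 3.11 ± 0.71 (edgeR adjusted p = 0.0548). DESeq2 on all libraries called it (adjusted p = 0.00658), and without replicate 10 edgeR called it as well (2.88, adjusted p = 0.0474), whereas without replicate 11 it was 2.35 (adjusted p = 0.132) and without WT bleomycin replicate 4-B2 3.72 (adjusted p = 0.0723).

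Other known targets of the aryl hydrocarbon receptor divided over these libraries. Gsta2 was at 5.13, 3.1, 8.99 and 10.7 TPM in CB1R KO, with replicates 10 and 11 again the highest and the log2 fold change 0.90 ± 0.40 (edgeR adjusted p = 0.269). In WT bleomycin, replicate 4-B2 was the highest for both Cyp1a1, at 2.91 TPM, and Gsta2, at 6.93 TPM. Cyp1b1 was at 2.82, 4.22, 6.71 and 6.14 TPM in CB1R KO, also highest in replicates 10 and 11. Its log2 fold change against WT bleomycin had the opposite sign to Cyp1a1, at -0.38 ± 0.22 (edgeR adjusted p = 0.402). Nqo1 and Aldh3a1, outside the families and chosen after their values were seen, were at 8.54, 8.56, 13.7 and 15.0 TPM and at 6.62, 11.3, 20.5 and 19.7 TPM in CB1R KO. Neither was called (edgeR adjusted p = 0.622 and 0.506). Ahrr, a repressor that the receptor induces, was low throughout and highest in replicates 10 and 11 (0.0887, 0.104, 0.33 and 0.251 TPM), whereas Tiparp, a further target, was at 15.5, 18.9, 13.5 and 16 TPM without that order. Ahr itself was at 32.5, 23.9, 30.6 and 27.6 TPM in these libraries, with no such split. Gstp1 had replicate 11 high, at 313.1 TPM beside 222.4 to 225.5 TPM in the other 3.

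**Figure D4:**
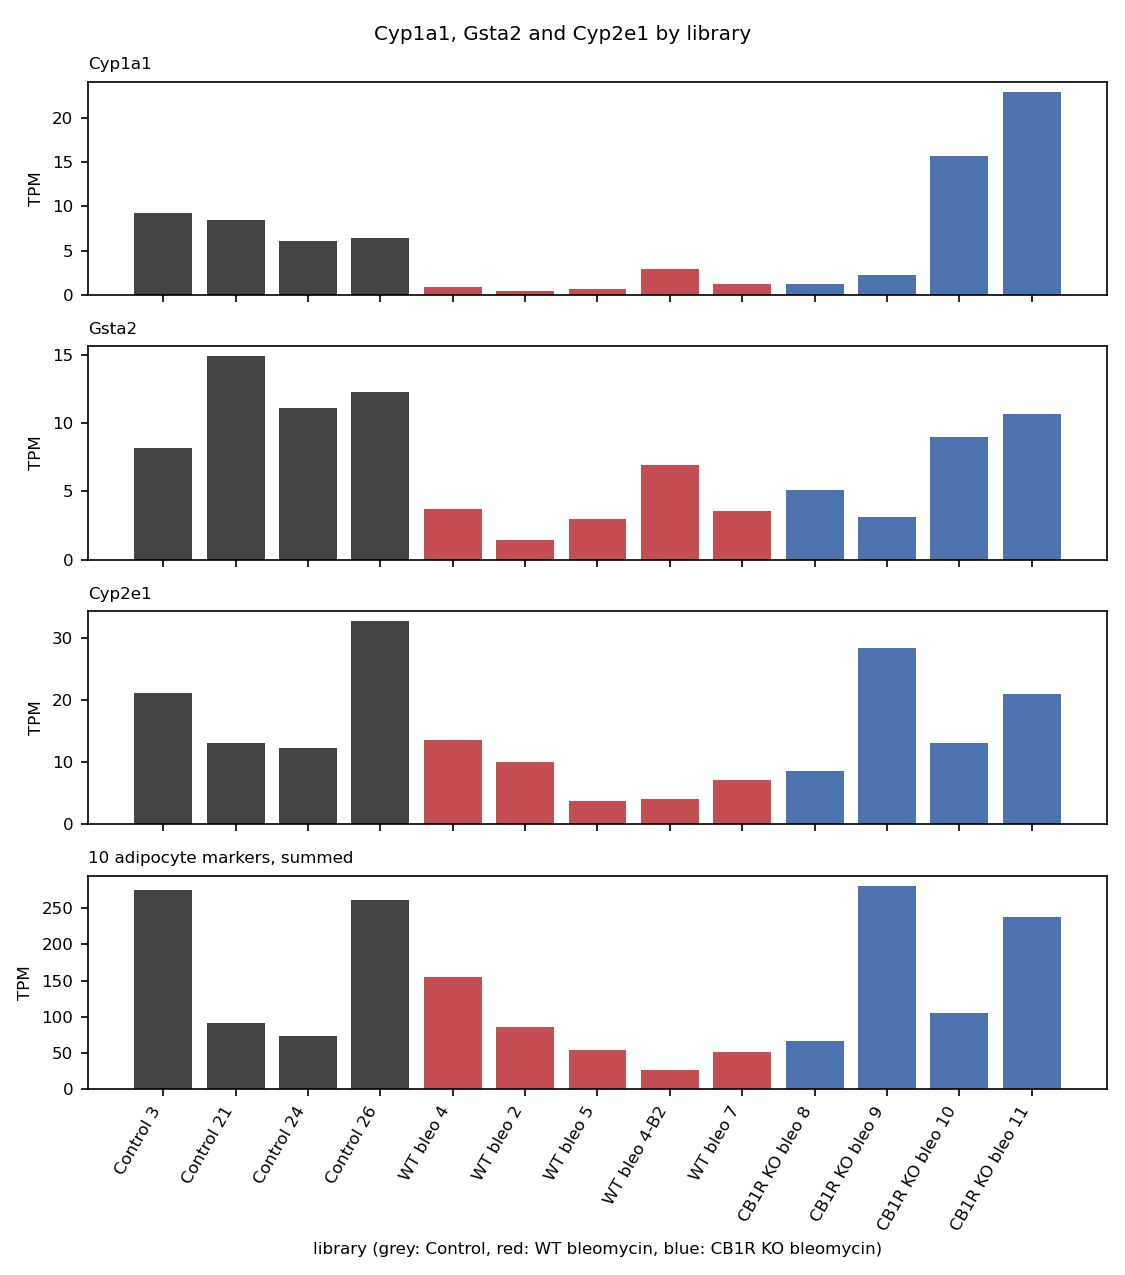
TPM (y axes, from 0) of Cyp1a1, Gsta2, Cyp2e1 and the sum of 10 adipocyte markers in each of the 13 libraries (x axis), coloured by group. Cyp1a1 and Gsta2 are highest among the CB1R KO libraries in replicates 10 and 11, whereas Cyp2e1 and the adipocyte sum are highest there in replicates 9 and 11.

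Cyp2e1 was at 8.58, 28.3, 13 and 20.9 TPM in CB1R KO, higher than WT bleomycin by 1.19 ± 0.41 on the log2 scale without passing the test (edgeR adjusted p = 0.166). The adipocyte sum was 66.6, 280.3, 105.2 and 238.3 TPM in the same 4 libraries, in the same order of libraries as Cyp2e1. Its part in the values was not tested.

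Cyp27a1 and Cyp4v3 lay next to the threshold, both higher in CB1R KO. Cyp27a1 was at 21.3, 19.7, 18.8 and 20.6 TPM, above every WT bleomycin library and below every Control, with a log2 fold change of 0.39 ± 0.10 (edgeR adjusted p = 0.0676). Cyp4v3, a fatty acid hydroxylase, was at 30.1, 26.1, 20.1 and 23.8 TPM (0.37 ± 0.10, adjusted p = 0.0816). DESeq2 called both, as did edgeR without CB1R KO replicate 10. Cyp4b1, at 250.9, 264.2, 134.7 and 164.6 TPM, had replicates 8 and 9 above the WT bleomycin range and replicates 10 and 11 within it (0.40 ± 0.17, adjusted p = 0.254).

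For Cyp7b1 the 95% interval of the log2 difference between CB1R KO and WT bleomycin ran from -0.58 to 0.07, for Cyp2d22 from -0.06 to 0.55 and for Gsta3 from -0.06 to 0.83. Gstk1 had every CB1R KO library below every WT bleomycin library on the CPM scale, yet by only 0.10 ± 0.08 (edgeR adjusted p = 0.542). In all, 2 members had every CB1R KO library above and 1 below, beside 2.50% and 3.10% of all genes tested. None of the 6 lists of partner genes had a called gene in this comparison.

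Type II cell markers had 4 of 10 called higher in CB1R KO and none lower, beside 0.359% and 0.620% of all genes tested. Without CB1R KO replicate 8, 9 or 11, only 1, 0 and 1 of all genes were called higher, so these calls did not all hold there. The summed type II level was 25206 to 39148 TPM in CB1R KO beside 20005 to 24007 TPM in WT bleomycin. Replicate 10, the lowest of the 4 CB1R KO libraries in that sum, was also the lowest in Cyp4b1 and Cyp27a1, whereas Gstm1 was level over them. Among the other marker lists, T and NK cell genes had 2 of 7 higher, with sums of 88.6 to 92.7 TPM in CB1R KO and 49.4 to 75.8 TPM in WT bleomycin. Endothelial cell and fibroblast genes had 1 of 10 higher each, and club cell genes 1 of 12 lower. The part of these cells in the differences was not tested.

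**Figure D5:**
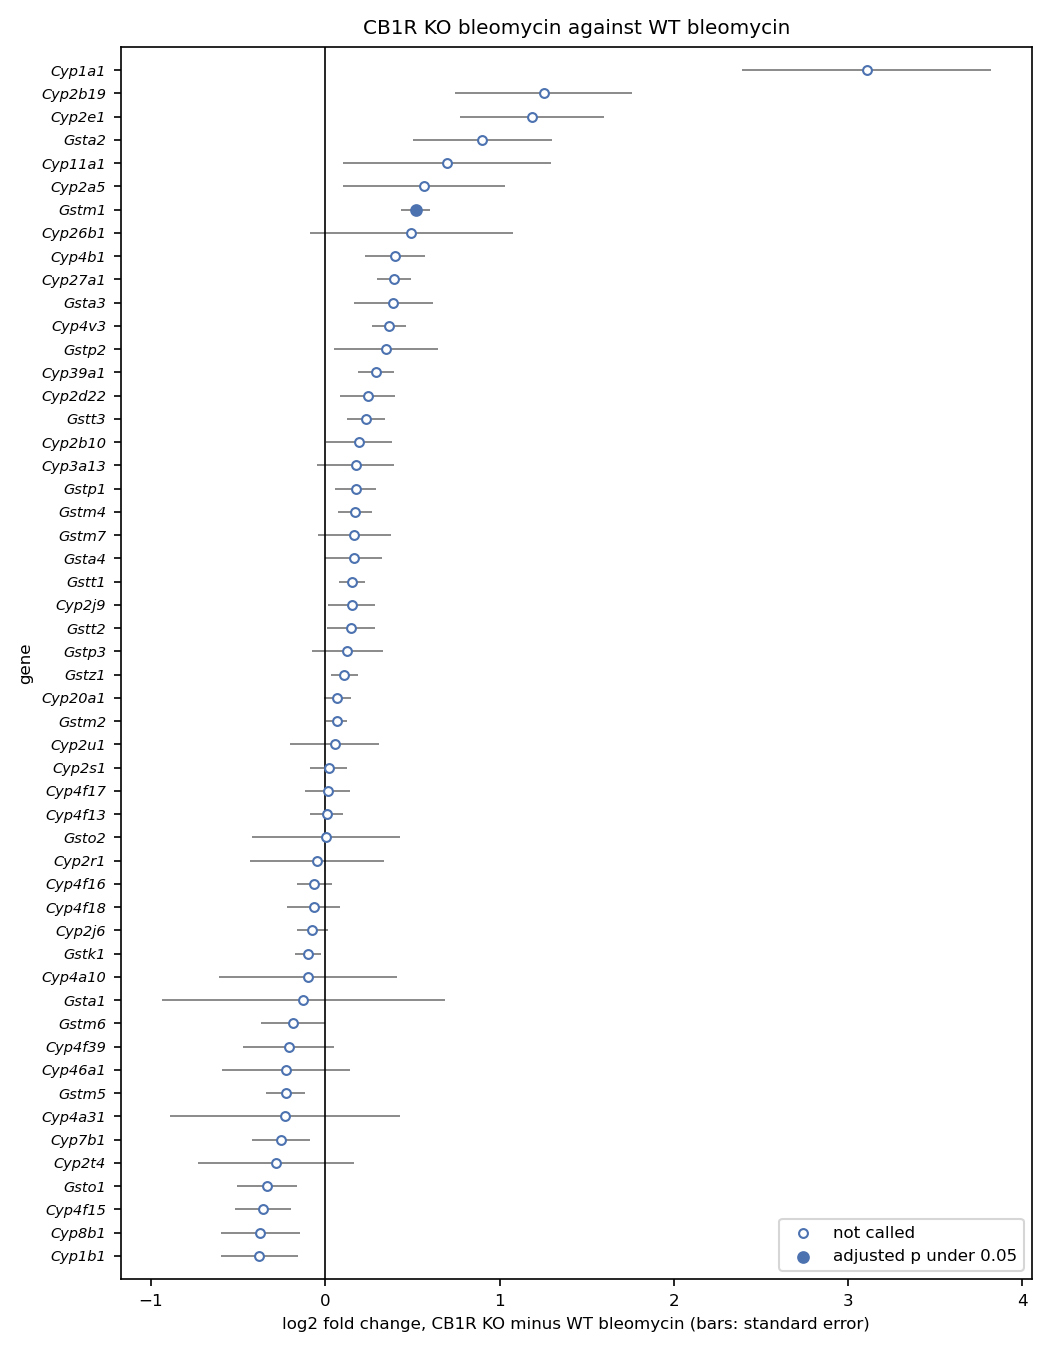
CB1R KO minus WT bleomycin as a log2 fold change (x axis) for the 52 tested members (y axis, sorted), with bars for the standard error. Gstm1, filled, is the sole member with an adjusted p under 0.05, at 0.52, while Cyp1a1 lies farthest out at 3.11 with a wide bar.

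CB1R KO bleomycin lungs were finally compared with Control, which shares its libraries with the other comparisons. Here 19 members were lower and 4 higher, beside 16.3% of all genes tested called lower, 2911 of 15315 called higher and 35.4% called in either direction, with a median log2 fold change of -0.26 over the members and -0.01 over all genes. Every CB1R KO library lay below every Control for 18 members and above for 5, beside 15.8% and 17.7% of all genes tested. Of the 25 members lower in WT bleomycin, 17 were also called lower in CB1R KO bleomycin, and of the 6 higher, 3 were called higher. Over all genes tested, fewer were called against Control in CB1R KO than in WT bleomycin too, 2504 against 3658 lower and 2911 against 3834 higher. How many of those were the same genes was not counted, so 17 of 25 has no background beside it. Among the 17 were Cyp4b1 (-1.56 ± 0.18), Cyp2d22 (-1.46 ± 0.16), Gsta3 (-1.37 ± 0.24), Cyp2b10 (-1.12 ± 0.20) and Gstm1 (-1.01 ± 0.09), with edgeR adjusted p from 2.84e-06 to 0.000718.

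The 8 members called lower in WT bleomycin alone were Cyp1a1, Cyp2a5, Cyp2e1, Cyp4v3, Gsta2, Gstp1, Gstp2 and Gstt1. Their log2 fold changes against Control in CB1R KO ranged from -1.25 for Cyp2a5 to 0.45 for Cyp1a1. Both ends rested on 1 library, since Cyp2a5 was at -0.35 without Control replicate 26 and Cyp1a1 at -0.31 without CB1R KO replicate 11. None of the 8 passed edgeR's test of CB1R KO against WT bleomycin, so that fit does not show a difference by genotype for them. DESeq2 called Cyp1a1 and Cyp4v3, as given above. Gstp1 was called lower in CB1R KO once replicate 11 was left out (-0.39, edgeR adjusted p = 0.00445). The 3 members called in CB1R KO but not in WT bleomycin were Cyp4a31 and Gstm6, both lower, and Gstm4, higher. On the rising side Cyp7b1 was at 10.6, 6.74, 14.0 and 12.2 TPM in CB1R KO, all above Control (1.90 ± 0.19, adjusted p = 8.24e-06), and Cyp4f39 and Cyp4f16 were higher as well.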

How the data were processed

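Libraries were made from lung RNA (oligo(dT) selection, NEBNext Ultra II, paired-end Illumina HiSeq) and the authors quantified them with Kallisto (version not given in the sources used here) on Ensembl transcripts (build GRCm39). The deposited estimated counts and the deposited TPM values were summed by the authors per gene, protein-coding transcripts alone, and were not normalized between libraries, and 70.2% of the count values were not whole (tolerance 1e-06). Total TPM was 821763 to 854358 per library.

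Groups follow the treatment given in the labels. The TPM table holds 1 further column of a sample that the labels do not list, which was not used. Estimated counts were rounded, filtered with filterByExpr, scaled by TMM and compared in R 4.3.3 by edgeR 4.0.16 (quasi-likelihood), with all 13 libraries in 3 groups, no covariates, two-sided tests and Benjamini-Hochberg adjustment over 15315 genes at 0.05. The labels give each library as a separate sample, and p-values measure the spread between these samples. For log2 CPM the prior count was 2. DESeq2, the tool of the study, was run here (1.42.0) as an alternative, as were limma 3.58.1 on log2 TPM, other filters and scalings, and fits without each library. The fit was also run on simulated counts with known changes in far fewer genes than were called between WT bleomycin and Control. That run gives no error rate for these data.

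The members and gene lists were chosen with earlier results of these data known. Genes named were those called between CB1R KO and WT bleomycin, up to 10 in each direction with the lowest p between WT bleomycin and Control, the 10 with the highest median TPM, a set of 26 well-known members, and others named where a count of 5 or fewer or a group needed them. Shared words are 31-mers in protein-coding transcripts of GENCODE M21, an earlier annotation than that of the authors. Promoters came from RefSeq on build GRCm38.p6, not the build of the counts. Tables and plots were made in Python 3.11.15 (matplotlib 3.10.9, numpy 2.4.6, pandas 2.3.3).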

Additional observations from a re-analysis of the deposited data

Results flagged for a closer look

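Within groups of 4 or 5 libraries, 7 of 87 tested sets of TPM values had 1 library far from the others by Dixon's test, where chance gives about 1 in 20. In Control, Cyp2a5 was at 172.2 TPM in replicate 26, with the next highest at 52.9. In WT bleomycin replicate 4-B2, Cyp1a1 was high at 2.91 TPM (next 1.18), Cyp27a1 was low at 11.0 TPM (next 15.4) and Gstt1 was low at 83.6 TPM (next 100.5). Gstm2 was high at 160.2 TPM in WT bleomycin replicate 2, next to 149.4. Among CB1R KO libraries, Gstp1 was high at 313.1 TPM in replicate 11 (next 225.5) and Cyp2s1 was low at 59.2 TPM in replicate 10 (next 71.1). Replicate 11 is the library with 53463884 estimated counts.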

How the results depend on the processing

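Over 25 alternatives, the members called in WT bleomycin against Control numbered 23 to 28 lower and 4 to 8 higher, and in CB1R KO bleomycin against Control 16 to 20 lower and 4 to 6 higher. Between CB1R KO and WT bleomycin, 1 member was called higher in the fit reported here, 4 with DESeq2 on all libraries or on the 2 groups compared, 2 without a filter on low counts, and 0 to 4 when 1 library was left out, with 0 lower in all 25. The count was 0 without CB1R KO replicate 8, 9 or 11 and 4 without replicate 10. Calls over all genes moved likewise: 1, 0 and 1 were higher without replicates 8, 9 and 11. Without replicate 10 it was 263, and 55 in the fit reported here. Of 26 named members called between WT bleomycin and Control, all 26 kept their direction and 21 their call in all alternatives that could be fitted. The titles of Control replicate 26 and WT bleomycin replicates 4-B2 and 7 are written with capitals, and without these 3 libraries the edgeR calls of Cyp2e1 (-0.82, adjusted p = 0.196), Cyp1b1 (0.38, 0.246), Cyp11a1 (-1.68, 0.0733) and Gstt1 (-0.18, 0.096) were lost. No CB1R KO title is written so. Between CB1R KO and WT bleomycin, 1 of all genes was called higher and 5 lower without these 3 libraries. With the style of the titles as a term it was 9 and 32, beside 55 and 95 in the fit reported here. Gstm1 stayed called in both settings (edgeR adjusted p = 0.0223 and 0.0301). The cause of these changes was not tested. No paired analysis was made, because the lung was taken once, at the end, from mice of separate groups that share no replicate number. The filter on low counts left 53 members out of the fit reported here, and without it 103 members were tested.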
